A study of Mus musculus with 28 samples.

Results

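Hepcidin and 9 other genes through which the liver senses, takes up, stores and releases iron were followed in livers of mice with NASH given one of 2 farnesoid X receptor (FXR) agonists. The genes were listed by name, with earlier results of these data known, and the rule itself uses no measured value. They were the hepcidin genes Hamp and Hamp2, the bone morphogenetic protein (BMP) ligand Bmp6 and the BMP target Id1, the transferrin receptors Tfrc and Tfr2, transferrin (Trf), ferritin heavy chain (Fth1), ferroportin (Slc40a1) and ceruloplasmin (Cp). All 10 were found among the 21935 genes counted, and all 10 were among the 12580 genes that passed the filter on low counts. In all, 28 male mice were used, and each gave 1 liver and 1 mRNA library. They carried the B6.V-Lepob/JRj background (obese mice without functional leptin) and were obtained at 5 weeks of age. They received the AMLN diet, which is high in fat, fructose and cholesterol, for 14 weeks before treatment and also during treatment. Of these, 10 mice then received vehicle, 9 received obeticholic acid (OCA) at 30 mg/kg and 9 received INT-787 at 30 mg/kg, orally and once daily for 2 weeks. OCA is chenodeoxycholic acid, a natural bile acid, with an added ethyl group, and INT-787 is known by its code name. All mice, including those given vehicle, lacked leptin and ate this diet, and no lean or chow-fed liver was analysed here. The comparisons therefore describe drug effects on a background of obesity and diet.

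Hepcidin is a peptide hormone that the liver secretes when iron is plentiful. It binds ferroportin, the only known cellular iron exporter, and causes its breakdown, so that less iron enters the plasma from the gut, from macrophages and from hepatocytes. Its gene is switched on mainly by BMP6 from sinusoidal endothelial cells, which acts through hemojuvelin and SMAD proteins in hepatocytes, and by interleukin-6 acting through STAT3. Tfrc, ferritin and ferroportin are also controlled by iron regulatory proteins that act on mRNA stability and translation, so that mRNA levels show only part of their regulation.

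The mouse has 2 neighbouring hepcidin genes on chromosome 7 (GRCm38, minus strand). Hamp (ENSMUSG00000050440) spans 30942368 to 30944032 and Hamp2 (ENSMUSG00000056978) spans 30922372 to 30924681 in the GENCODE annotation. Hamp codes for the iron-regulating peptide, and the function of the Hamp2 product is less clear. The 250 bases before each RefSeq start, from GRCm38.p6, are shown because the 2 genes are compared closely here and their promoters are near copies. The windows are chr7:30944030-30944279 for Hamp and chr7:30924182-30924431 for Hamp2, both read on the minus strand. The Hamp2 window lies before the shorter annotated transcripts and inside an intron of a longer one. Capitals mark the letters GGCGCC, the core of the element through which BMP signals reach hepcidin, and the letters TTCNNNGAA, the form bound by STAT proteins.

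Hamp: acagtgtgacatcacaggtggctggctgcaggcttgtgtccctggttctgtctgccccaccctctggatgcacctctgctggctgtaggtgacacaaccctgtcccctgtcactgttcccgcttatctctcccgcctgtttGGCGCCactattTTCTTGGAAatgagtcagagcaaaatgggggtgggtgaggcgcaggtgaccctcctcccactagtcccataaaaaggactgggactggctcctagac
Hamp2: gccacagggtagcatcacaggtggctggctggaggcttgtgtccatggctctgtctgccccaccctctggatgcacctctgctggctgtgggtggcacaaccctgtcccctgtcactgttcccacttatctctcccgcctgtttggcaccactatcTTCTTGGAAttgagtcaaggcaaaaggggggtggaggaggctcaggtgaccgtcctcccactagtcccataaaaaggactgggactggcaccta

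Over 247 aligned bases 227 were identical (91.9%), and 20 were substituted. Counted from 1 at the 5′ end of the Hamp window, GGCGCC stood at positions 142 to 147 and the STAT form at positions 154 to 162. The STAT form held 0 substitutions. The BMP core held 1, G145A, and GGCGCC was therefore missing from the Hamp2 window. Both motifs read the same on both strands and did not overlap each other. Of 32851 promoter windows of this length in the RefSeq table, 9.59% held GGCGCC and 7.02% held TTCNNNGAA, so neither is rare. Such windows were there for 7 of the 10 genes (12 windows), and Id1, Trf and Slc40a1 had none. Apart from Hamp, GGCGCC stood in 1 window of Tfrc, and TTCNNNGAA stood in the Hamp and Hamp2 windows only among these 12. The inverted repeat bound by FXR (AGGTCA, any 1 base, then TGACCT, which also reads the same on both strands) stood in 2 windows of the 32851. It stood in 0 of the 12 windows of the 7 genes. So rare a form would be missing from almost any 12 windows, so its absence says nothing about FXR at these genes. These are matches of letters and not measured binding.

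Library depth ranged from 1009593 to 18342272 counts in vehicle mice, from 10990531 to 22421506 with OCA and from 12513715 to 22128216 with INT-787. One vehicle library, replicate 6, had 1009593 counts where the next lowest vehicle library had 9313260. Another, replicate 5, had 1045 CPM (read counts scaled by library size) on 26 genes antisense to expressed genes, where the other 27 libraries had 25.4 to 54.6, so that it appears not to have kept strand. This bears on Hamp2, Bmp6 and Cp, which overlap genes on the opposite strand. Without this library INT-787 against vehicle gave a log2 fold change of 1.47 for Hamp2 (adjusted p = 0.016) and 0.62 for Bmp6 (adjusted p = 0.0013), and OCA against vehicle gave 0.43 for Cp (adjusted p = 0.026). Libraries also differed in the level of short against long genes. The median log2 level of 744 protein-coding genes of at most 1500 bp, minus that of 4067 genes over 6000 bp, ranged from -0.60 to 0.84 in vehicle mice, -0.34 to 0.34 with OCA and -0.27 to 0.35 with INT-787, and the group medians lay between -0.012 and -0.0062. Known FXR targets responded to both drugs. Nr0b2, Slc51b and Abcb11 rose and Cyp7a1 fell with each, 4 of 4 genes. Values below are CPM with TMM-scaled libraries, adjusted p is from edgeR's quasi-likelihood test over the 12580 genes, and a gene was called at an adjusted p of at most 0.05.

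Per kilobase of exon, the level of the 10 genes in vehicle livers ran from ferritin heavy chain to Bmp6. Fth1 was highest at 1121 ± 229 CPM per kb (SD, n = 10), followed by Hamp at 565 ± 376, Trf at 563 ± 247 and Cp at 364 ± 68.9 CPM per kb. Tfr2 at 78.1 ± 9.13 and Hamp2 at 57.4 ± 34.1 CPM per kb came next. Id1 at 11.5 ± 3.48, Slc40a1 at 11.01 ± 3.13, Tfrc at 3.49 ± 1.97 and Bmp6 at 1.01 ± 0.261 CPM per kb were lowest. Neighbours from Fth1 to Cp overlapped within 1 SD, as did Tfr2 with Hamp2 and Id1 with Slc40a1, while Cp and Tfr2, Hamp2 and Id1, Slc40a1 and Tfrc, and Tfrc and Bmp6 did not. The spread between vehicle mice differed greatly among the genes. The coefficient of variation was 66.5% for Hamp and 59.5% for Hamp2, against 11.7% for Tfr2 and 18.9% for Cp.

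INT-787 raised 2 of the 10 genes, Bmp6 by 1.61-fold and Hamp2 by 2.34-fold, and 0 of 10 fell. Over all tested genes 19.6% were called in this comparison, 10.2% higher and 9.48% lower, so that 2 of 10 is close to the background share, and 3 of 10 had an unadjusted p under 0.05. OCA raised 1 of the 10, Cp by 1.32-fold, where 6.6% of all tested genes were called (4.15% higher, 2.45% lower), and 5 of 10 had an unadjusted p under 0.05. Between the drugs 0 of 10 genes were called by edgeR, by DESeq2 or by limma-voom, where 5.38% of all tested genes were called (2.19% higher and 3.19% lower in INT-787 mice), and 2 of 10 had an unadjusted p under 0.05. The median log2 fold change of the 10 genes was 0.21 for INT-787 against vehicle, 0.22 for OCA and 0.068 between the drugs, against -0.001, 0.018 and -0.0065 over all tested genes. In 0 of the 30 combinations of gene and comparison did the groups separate without overlap. The 2 drug comparisons share the vehicle mice.

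**Figure D1:**
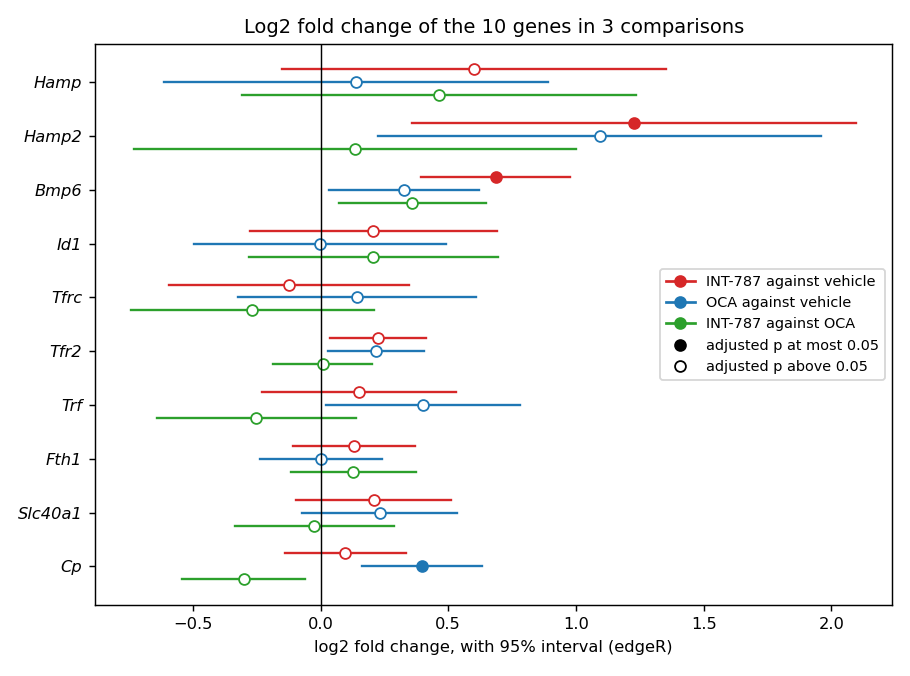
Log2 fold change of each of the 10 genes (x axis, log2 units) with its 95% interval for each drug against the vehicle group and for the drugs against each other, with filled circles for an adjusted p of at most 0.05. Filled circles stand at Hamp2 and Bmp6 for INT-787 and at Cp for OCA, and the widest intervals are those of Hamp and Hamp2.

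Bmp6 (ENSMUSG00000039004, chromosome 13, 38345107 to 38500302), the iron-responsive BMP ligand, rose with INT-787. Vehicle mice had 2.19 CPM at the lowest, 3.83 at the median and 5.52 at the highest. OCA-treated mice had 3.79, 4.78 and 6.27 CPM, and INT-787-treated mice 4.40, 5.89 and 8.03 CPM. In all, 7 of 9 INT-787 mice stood above the highest vehicle mouse and all 9 above the vehicle median, although the ranges overlapped. Group means were 3.93 ± 1.02 (SD, n = 10), 4.76 ± 0.863 (n = 9) and 6.13 ± 1.15 CPM (n = 9). INT-787 changed Bmp6 by 0.69 on the log2 scale (SE 0.14, adjusted p = 0.000736). With OCA it was 0.33 (95% interval 0.033 to 0.62, adjusted p = 0.21), and INT-787 against OCA gave 0.36 (95% interval 0.070 to 0.65, adjusted p = 0.14). Neither of the last 2 was called, so that a greater response to INT-787 than to OCA was not shown. Bmp6 is a low gene here, with 6 to 144 counts per library and its 6 counts in vehicle replicate 6, and 224 of its 3900 exon bases overlap Txndc5 on the opposite strand. The call was kept in each of 28 fits that left out 1 mouse (log2 0.62 to 0.74) and was 0.64 without vehicle replicates 5 and 6 (adjusted p = 0.0012).

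Because Bmp6 comes mainly from sinusoidal endothelial cells, markers of these cells are given beside it. Of 6 markers (Stab2, Lyve1, Clec4g, Dnase1l3, Kdr and Fcgr2b) 0 rose with either drug, and 1, Fcgr2b, fell with INT-787. By edgeR 3 of 6 with INT-787 and 2 of 6 with OCA had an unadjusted p under 0.05. Their summed level was 198 to 345 CPM in vehicle mice, 165 to 289.9 with OCA and 127 to 265 with INT-787. In whole liver, fewer cells of a type and less RNA per cell cannot be told apart. Bmp2, the other endothelial BMP ligand of the iron pathway, was not called in any comparison. Its mean was 15.7 ± 2.57, 12.9 ± 2.27 and 15.3 ± 4.00 CPM in vehicle, OCA and INT-787 mice.

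Hamp itself was not called in any comparison. It ranged from 13.6 CPM through a median of 184 to 447 CPM in vehicle mice, from 149 through 204 to 616 with OCA and from 149.8 through 333 to 595 with INT-787. Of 9 INT-787 mice, 8 stood above the vehicle median but only 3 above the highest vehicle mouse. Means were 232 ± 154 (n = 10), 256 ± 151 (n = 9) and 352 ± 143 CPM (n = 9). Against vehicle, INT-787 gave a log2 fold change of 0.60 (SE 0.37, adjusted p = 0.27), with a 95% interval from -0.15 to 1.35 that leaves room for a fall as well as for a more than 2-fold rise. With OCA it was 0.14 (95% interval -0.61 to 0.89, adjusted p = 0.91), and between the drugs 0.46 (95% interval -0.31 to 1.23, adjusted p = 0.57). Vehicle replicate 2 was far below the rest, at 166 counts, and the next lowest vehicle mouse had 9.18 times its level. Without this mouse the log2 fold change was 0.46 with INT-787 (adjusted p = 0.32) and -0.0054 with OCA. Without OCA replicate 6, the highest of its group, the value with OCA was -0.14 and that between the drugs 0.74 (adjusted p = 0.31). By limma-voom the log2 fold change was 0.94 with INT-787 (adjusted p = 0.12) and 0.42 with OCA (adjusted p = 0.67).

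Hamp2, the second hepcidin gene, rose with INT-787. Vehicle mice had 7.04, 32.4 and 78.0 CPM at the lowest, median and highest. OCA-treated mice had 21.5, 41.2 and 183 CPM, and INT-787-treated mice 27.01, 66.7 and 179 CPM. A pair of OCA mice, at 183 and 181 CPM, stood far above the others of that group, and 3 of 9 INT-787 mice stood above the highest vehicle mouse. The log2 fold change was 1.23 with INT-787 (SE 0.43, adjusted p = 0.0392) and 1.09 with OCA (SE 0.43, 95% interval 0.23 to 1.96, adjusted p = 0.14). Between the drugs it was 0.13 (95% interval -0.73 to 1.00, adjusted p = 0.92). The call with INT-787 was a narrow one. It was lost under upper-quartile normalization (adjusted p = 0.053), with robust estimation (adjusted p = 0.069) and in 10 of 28 fits without 1 mouse. These 10 were the fits without vehicle replicate 1, 2, 3, 4, 7 or 8 or INT-787 replicate 3, 4, 6 or 9, with log2 fold changes of 0.98 to 1.24. Only the promoters of Hamp and Hamp2 were compared here, and reads shared between the 2 genes could not be checked. The split of reads between them is therefore uncertain. Hamp2 also shares 89 exon bases with Gm44662 on the opposite strand.

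Id1 (ENSMUSG00000042745, chromosome 2, 152736251 to 152737410), which codes for an inhibitor of DNA binding and is a direct target of BMP-SMAD signalling, was not called. It ranged from 6.96 through 13.8 to 19.5 CPM in vehicle mice, from 6.95 through 9.91 to 24.5 with OCA and from 8.83 through 14.6 to 28.8 with INT-787. The groups overlapped over most of their range. On the log2 scale Id1 differed by 0.21 with INT-787 (95% interval -0.28 to 0.69, adjusted p = 0.60) and -0.001 with OCA (95% interval -0.49 to 0.49, adjusted p = 1.00). Between the drugs it was 0.21 (95% interval -0.28 to 0.69, adjusted p = 0.73). Smad7, another target of the same signal, had 8.23 ± 1.92, 10.5 ± 4.11 and 9.82 ± 3.80 CPM in vehicle, OCA and INT-787 mice and was not called.

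**Figure D2:**
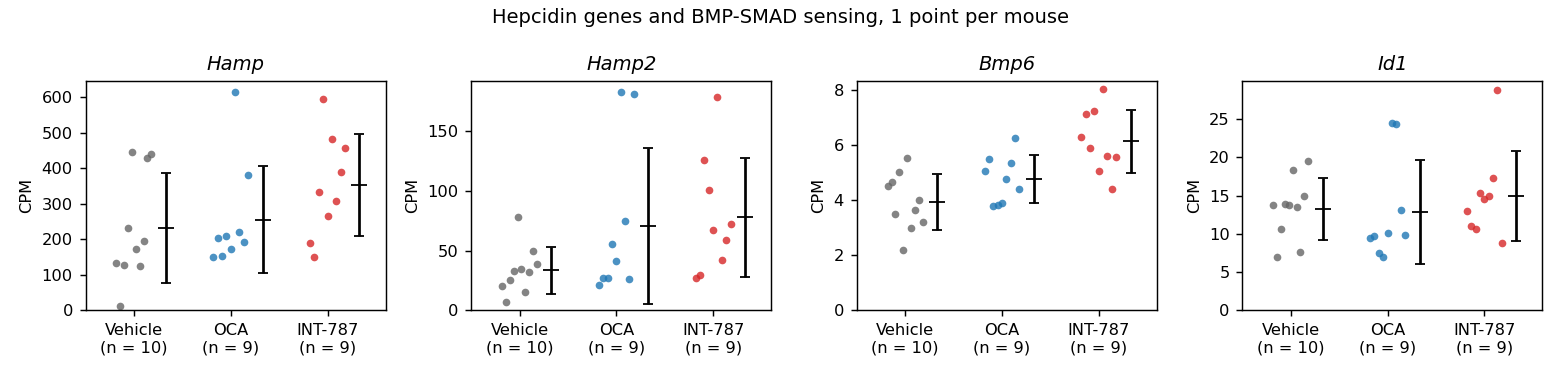
CPM (y axis, from 0) of Hamp, Hamp2, Bmp6 and Id1 in each mouse (1 point per mouse) by group, with the mean and SD as black bars. Bmp6 is shifted up as a group with INT-787, while the Hamp and Hamp2 points spread widely in every group and 1 vehicle mouse lies near 0 for Hamp.

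Mouse to mouse, the 2 hepcidin genes moved together. Between genes, 5 relations were computed over the 28 mice after group means were subtracted, with permutation p values adjusted over the 5. Hamp and Hamp2 had Pearson r = 0.80 and Spearman rho = 0.89 (each permutation p = 1e-05, the smallest 100000 permutations can give, adjusted p = 5e-05), and r = 0.79 without the 2 mice farthest out in Hamp. Within groups r was 0.93 in vehicle mice (n = 10, permutation p = 4e-05), 0.90 with OCA (n = 9, exact permutation p = 0.0011) and 0.78 with INT-787 (n = 9, exact permutation p = 0.013). The part of any reads shared between the 2 genes in this relation was not tested.

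Id1 and Hamp also rose and fell together, but less firmly. Pearson r was 0.49 (permutation p = 0.0046, adjusted p = 0.011), rho was 0.49 (permutation p = 0.0098, adjusted p = 0.024), and r was 0.48 without the 2 mice farthest out in Id1 (permutation p = 0.019). Within groups r was 0.69 in vehicle mice (n = 10, permutation p = 0.026), 0.57 with OCA (n = 9, exact permutation p = 0.075) and 0.20 with INT-787 (n = 9, exact permutation p = 0.60). The relation rested in part on vehicle replicate 2, without which r was 0.39 (permutation p = 0.046, adjusted p = 0.12). Hamp and Id1 are both short mRNAs, and with the short-gene level of each library taken out of both, r was 0.28 (permutation p = 0.15, adjusted p = 0.38). Bmp6 showed no relation past the threshold with either gene. With Hamp its r was -0.24 (permutation p = 0.32) and rho -0.050 (permutation p = 0.81), and with Id1 its r was 0.041 (permutation p = 0.83) and rho 0.11 (permutation p = 0.60). Without vehicle replicates 5 and 6, which lay farthest out in Bmp6, these r values were -0.14 and -0.0015. Socs3, a STAT3 target, had r = 0.15 (permutation p = 0.35) and rho = 0.13 (permutation p = 0.51) with Hamp, and r = 0.27 without OCA replicate 1 and INT-787 replicate 8. Adjusted p over the 5 relations was 0.44 to 0.83 for r in these last 3.

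The short-gene level of the library moved with several of the 10 genes. Over the 28 mice with group means subtracted, 10 relations were computed. Hamp had r = 0.57 and rho = 0.73 with it (permutation p = 0.016 and 7e-05, adjusted p = 0.032 and 0.0007), and r = 0.57 without vehicle replicates 1 and 10, which lay farthest out. Hamp2 (r = 0.45, adjusted p = 0.032), Id1 (r = 0.51, adjusted p = 0.013), Trf (r = 0.63, adjusted p = 0.012) and Fth1 (r = 0.63, adjusted p = 0.0099) were also related to it by permutation test, and rho was 0.53 to 0.65 in these 4 genes. Without those 2 mice r was 0.51 for Hamp2, 0.59 for Id1 and 0.53 for Trf. For Fth1 the relation rested on the same 2 mice, since r was 0.37 without them (permutation p = 0.060). Bmp6, Tfrc, Tfr2, Slc40a1 and Cp showed no relation past the threshold, with r from -0.31 to 0.0087. The 5 genes most like Hamp over the 28 mice, among 9346 genes of at least 5 CPM, were Rps6 (rho = 0.83), Sf3b6 (0.83), 0610012G03Rik (0.82), Eif3m (0.80) and Atg5 (0.79). These rho values describe shared variation in libraries that also differ in depth and gene-length balance, and the part of these differences was not tested. With the short-gene level as a covariate, INT-787 against vehicle gave log2 fold changes of 0.71 for Hamp (adjusted p = 0.096), 1.28 for Hamp2 (adjusted p = 0.017) and 0.70 for Bmp6 (adjusted p = 0.00038).

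**Figure D3:**
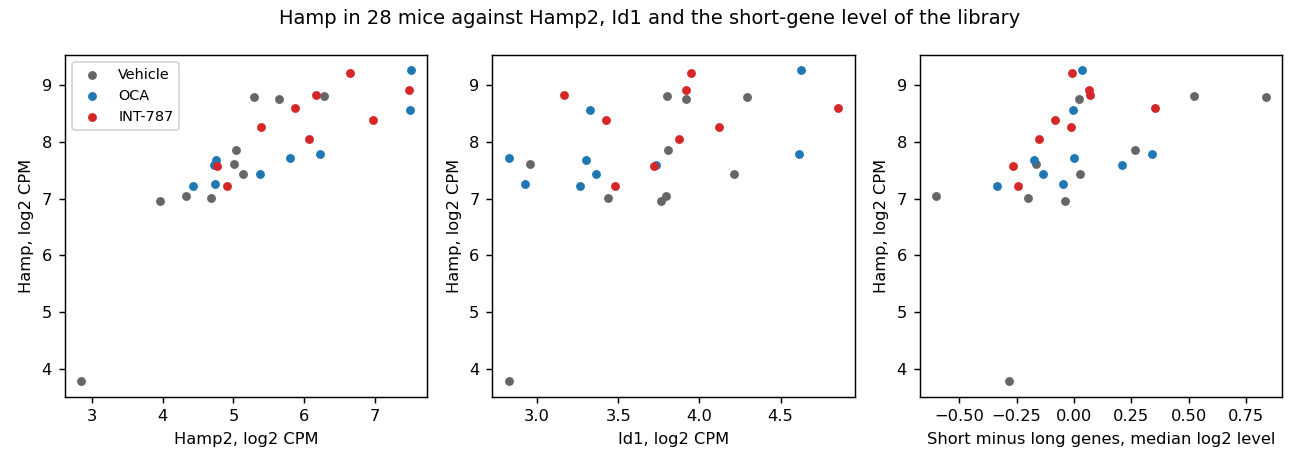
Hamp (y axis, log2 CPM) in 28 mice against Hamp2 (log2 CPM), Id1 (log2 CPM) and the short-gene level of each library (median log2 level of short minus long genes), coloured by group. Hamp rises with each of the 3 quantities, most tightly with Hamp2, and vehicle replicate 2 is the lone point at the bottom.

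Transferrin receptor 1 (Tfrc, ENSMUSG00000022797, chromosome 16, 32608920 to 32632794), which takes iron-loaded transferrin into cells and whose mRNA is stabilised when iron is short, was not called. It had 9.19, 21.4 and 51.0 CPM at the lowest, median and highest in vehicle mice, 15.5, 25.6 and 34.6 with OCA and 12.6, 21.3 and 27.4 with INT-787. Vehicle replicate 2, the mouse with the least Hamp, had the most Tfrc, and its next highest neighbour had 26.3 CPM. Its log2 fold change was -0.12 with INT-787 (95% interval -0.59 to 0.34, adjusted p = 0.76) and 0.14 with OCA (95% interval -0.32 to 0.61, adjusted p = 0.83), and without vehicle replicate 2 the value with INT-787 turned to 0.11 and that with OCA was 0.37 (adjusted p = 0.34). INT-787 against OCA gave -0.27 (95% interval -0.74 to 0.21, adjusted p = 0.61).

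Transferrin receptor 2 (Tfr2, ENSMUSG00000029716, chromosome 5, 137569840 to 137587481), a hepatocyte sensor of iron-loaded transferrin, was not called with either drug. Vehicle mice had 277 to 394 CPM (median 345), OCA-treated mice 322 to 505 (median 377) and INT-787-treated mice 341 to 479 (median 398). With each drug, 7 of 9 mice stood above the vehicle median. Its log2 fold change was 0.23 with INT-787 (95% interval 0.036 to 0.41, adjusted p = 0.085) and 0.22 with OCA (95% interval 0.028 to 0.41, adjusted p = 0.19). INT-787 against OCA gave 0.0084 (95% interval -0.19 to 0.20, adjusted p = 0.98).

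Trf (ENSMUSG00000032554, chromosome 9, 103204001 to 103230444), the plasma carrier of iron, ranged from 1102 through 1480.3 to 3709.7 CPM in vehicle mice, from 1807 through 2446 to 3340.1 with OCA and from 1549 through 1947 to 2887 with INT-787. All 9 mice of each drug stood above the vehicle median, yet vehicle replicate 5 held the highest value of the 28. With OCA the log2 fold change was 0.40 (SE 0.19, adjusted p = 0.24). Without vehicle replicate 5, the library with high antisense counts, it was 0.57 (adjusted p = 0.033), and with the short-gene level as a covariate 0.46 (adjusted p = 0.040). With INT-787 it was 0.15 (95% interval -0.23 to 0.53, adjusted p = 0.63), and between the drugs -0.25 (95% interval -0.64 to 0.14, adjusted p = 0.53). Trf shares 2108 exon bases with Gm20425 on the same strand, so reads there may have been assigned to neither or either.

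Fth1 (ENSMUSG00000024661, chromosome 19, 9980598 to 9985098), the iron-oxidising ferritin subunit, was not called. Vehicle mice had 2739.6 to 5634 CPM (mean 3889 ± 795, n = 10), OCA-treated mice 3146 to 4649 (3895 ± 519, n = 9) and INT-787-treated mice 3527 to 5750.0 (4258 ± 772, n = 9). The groups overlapped over nearly all of their range. INT-787 against vehicle gave 0.13 on the log2 scale (95% interval -0.11 to 0.37, adjusted p = 0.48), and OCA gave 0.0021 (95% interval -0.24 to 0.24, adjusted p = 1.00). Between the drugs it was 0.13 (95% interval -0.12 to 0.37, adjusted p = 0.64). Fth1 has processed copies elsewhere in the genome, and reads may be shared with them.

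Slc40a1 (ENSMUSG00000025993, chromosome 1, 45908068 to 45926523), the exporter that hepcidin removes, was not called. It had 72.8 to 148 CPM in vehicle mice (median 89.7), 77.6 to 147 with OCA (median 119.7) and 89.8 to 157 with INT-787 (median 109). All 9 INT-787 mice and 7 of 9 OCA mice stood above the vehicle median, within the vehicle range in all but 1 mouse. On the log2 scale Slc40a1 differed by 0.21 with INT-787 (95% interval -0.096 to 0.51, adjusted p = 0.36) and 0.23 with OCA (95% interval -0.072 to 0.54, adjusted p = 0.44). Between the drugs it was -0.024 (95% interval -0.33 to 0.29, adjusted p = 0.97). Macrophages as well as hepatocytes express it. Of 6 Kupffer cell markers 0 were called by edgeR against vehicle (2 had an unadjusted p under 0.05 with INT-787 and 1 with OCA), and their summed level was 240.2 to 461 CPM in vehicle mice, 216 to 625 in OCA mice and 202 to 418 in INT-787 mice.

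Cp (ENSMUSG00000003617, chromosome 3, 19957054 to 20009145), the copper ferroxidase that helps to load exported iron onto transferrin, rose with OCA. Vehicle mice had 2114 CPM at the lowest, 3585 at the median and 4327 at the highest. OCA-treated mice had 3718, 4721 and 5109.6 CPM, and INT-787-treated mice 2882, 3503 and 4992 CPM. Of 9 OCA mice, 6 stood above every vehicle mouse and all 9 above the vehicle median, while INT-787 mice spread evenly about it, 4 above and 5 below. The log2 fold change was 0.40 with OCA (SE 0.12, adjusted p = 0.031) and 0.10 with INT-787 (95% interval -0.14 to 0.33, adjusted p = 0.61). INT-787 against OCA gave -0.30 (95% interval -0.54 to -0.059, adjusted p = 0.14), which did not pass, so that a difference between the drugs was not shown. The call with OCA was narrow and was lost in 7 of 28 fits without 1 mouse, those without vehicle replicate 4, 6 or 9 or OCA replicate 1, 3, 4 or 9 (log2 fold change 0.34 to 0.39). It was also lost when only the 2 groups were fitted (adjusted p = 0.061), with the sample number set as a factor (adjusted p = 0.065) and with no filter on low counts (adjusted p = 0.054). Of its 9566 exon bases 108 overlap Hps3 on the opposite strand.

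**Figure D4:**
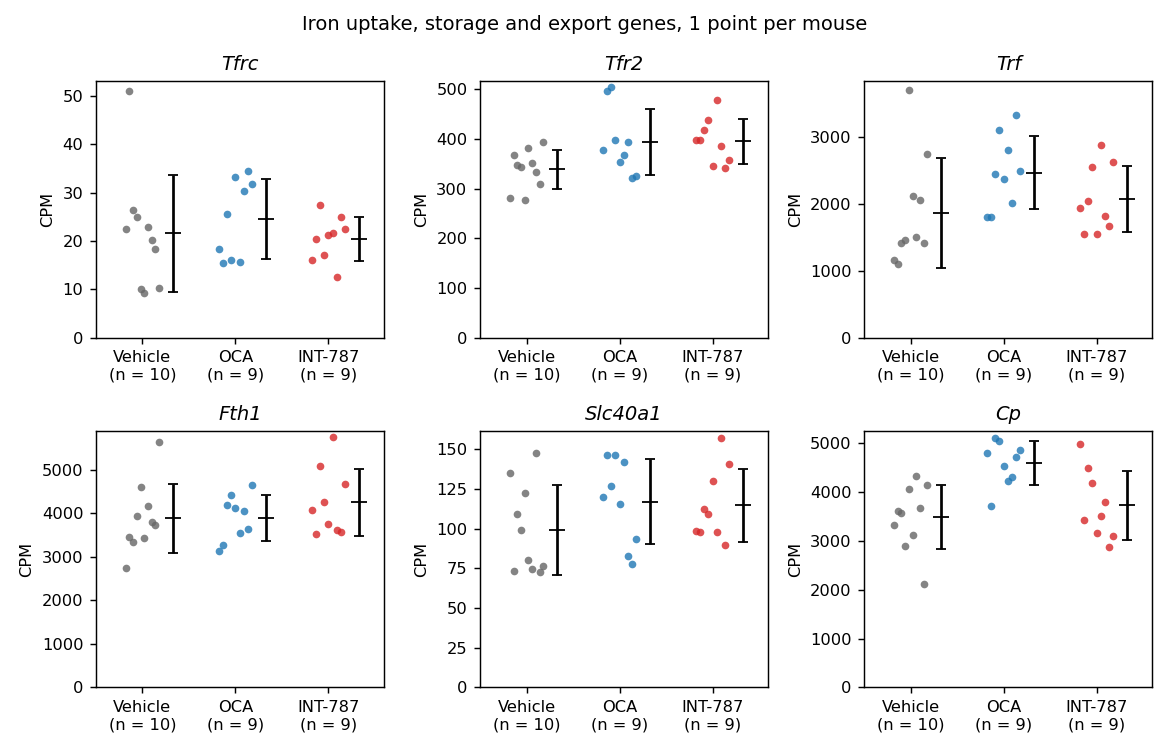
CPM (y axis, from 0) of Tfrc, Tfr2, Trf, Fth1, Slc40a1 and Cp in each mouse by group, with the mean and SD as black bars. Cp is higher in the OCA group, with 6 of 9 mice above every vehicle mouse, and the remaining panels show broad overlap of the 3 groups.

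Most of these genes are made chiefly by hepatocytes, and hepatocyte markers are given beside them. Of 5 such markers 2 rose with each drug, Alb (albumin) and Asgr1 (a subunit of the asialoglycoprotein receptor), and 3 were not called. Alb had 48544 to 106321, 87789 to 169588 and 77650.0 to 140328 CPM in vehicle, OCA and INT-787 mice. Alb rose by 0.45 on the log2 scale with INT-787 and 0.62 with OCA, against 0.10 and 0.40 for Cp. The median log2 fold change of the 5 markers was 0.38 with INT-787 and 0.33 with OCA. Of 5 lipid-associated macrophage markers 4 fell with INT-787, and their summed level was 420 to 697 CPM against 640.0 to 1020 with vehicle and 688 to 1947 with OCA. Against OCA all 5 were called lower with INT-787 (median log2 fold change -0.90), where 3.19% of all tested genes were lower. Of 4 stellate cell markers 1, Lrat, fell with INT-787. Erythroid markers, which could come from blood in the tissue, were not called by edgeR (0 of 5 tested in each comparison, with 1 at an unadjusted p under 0.05 with OCA and 0 with INT-787), with summed levels of 114 to 655 CPM over the 3 groups. The part of cell composition in the changes of the 10 genes was not tested.

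Around the 10 genes, 7 lists with 73 further genes of iron and heme biology were examined, and 70 genes passed the filter. With INT-787, 17 of 70 (24.3%) were called, 7 higher and 10 lower. With OCA 6 of 70 (8.57%) were called, 2 higher and 4 lower, and between the drugs 8 of 70 (11.4%), 2 higher and 6 lower with INT-787. The background shares were those given above, 19.6%, 6.6% and 5.38%.

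Among 19 tested genes of BMP-SMAD sensing, 2 were called with INT-787 (10.5%, against 19.6% of all tested genes) and 0 with OCA (against 6.6%). The 2 went opposite ways. Hjv (hemojuvelin, the BMP co-receptor of hepcidin control) had 86.3 ± 10.0, 93.3 ± 15.1 and 118 ± 15.1 CPM in vehicle, OCA and INT-787 mice and rose with INT-787 (log2 0.46, SE 0.09, adjusted p = 0.00051). Of 9 INT-787 mice, 8 stood above every vehicle mouse. INT-787 against OCA gave 0.34 (adjusted p = 0.025), a call lost without OCA replicate 8 or 9 or INT-787 replicate 7 or 8 (0.30 to 0.34). Fgl1, a liver-secreted protein that binds BMP6 and holds hepcidin down, had 351 ± 93.1, 291 ± 57.5 and 57.3 ± 25.2 CPM in vehicle, OCA and INT-787 mice. All 9 INT-787 mice lay below every vehicle and every OCA mouse, and the log2 fold change was -2.62 against vehicle (adjusted p = 6.72e-12) and -2.34 against OCA (adjusted p = 1.01e-09). Next in rank with INT-787 were Smad7 (0.30, adjusted p = 0.33) and Neo1 (-0.15, adjusted p = 0.42). With OCA the 4 leading genes were Acvr1 (0.26, adjusted p = 0.11), Bmp2 (-0.30, adjusted p = 0.25), Smad7 (0.40, adjusted p = 0.29) and Bambi (0.39, adjusted p = 0.33). By edgeR 2 of these 19 had an unadjusted p under 0.05 with OCA. Between the drugs Acvr1 had -0.23 (adjusted p = 0.17) and Bambi -0.50 (adjusted p = 0.19). Erfe, the erythroid inhibitor of BMP6, was too low to test.

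In the cytokine arm, 1 of 9 tested genes was called with INT-787 (11.1%, against 19.6% of all tested genes) and 2 with OCA (22.2%, against 6.6%). Creb3l3, a liver transcription factor that can act on the hepcidin promoter, rose with both drugs, from 222 ± 35.4 CPM to 278 ± 33.4 with OCA (log2 0.33, adjusted p = 0.025) and 315 ± 37.2 with INT-787 (log2 0.51, adjusted p = 0.00014). The OCA call was lost without vehicle replicate 5 or 9 or OCA replicate 3 (0.29 to 0.31) and with only the 2 groups (0.31, adjusted p = 0.067). Inhbb, which codes for an activin subunit that can raise hepcidin in inflammation, fell with OCA by 0.87 on the log2 scale (adjusted p = 0.0047) and had a value of -0.47 with INT-787 (adjusted p = 0.090). Socs3 had 0.53 with INT-787 (adjusted p = 0.10) and 0.50 with OCA (adjusted p = 0.23), and Stat3 had -0.20 and -0.16. Between the drugs 0 of 9 were called by edgeR, and 0 had an unadjusted p under 0.05. There Inhbb had 0.40, Creb3l3 0.18, Cebpa -0.16 and Il1b 0.26 (adjusted p = 0.27, 0.31, 0.68 and 0.69). Il6 was too low to test.

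Of 9 iron uptake genes, 4 were called with INT-787 (44.4%, against 19.6% of all tested genes) and 1 with OCA (11.1%, against 6.6%). Steap3, the reductase that reduces iron in endosomes after transferrin uptake, rose with both drugs, from 41.3 ± 7.43 CPM to 69.4 ± 10.1 with OCA and 87.7 ± 19.96 with INT-787. All 9 mice of each drug stood above every vehicle mouse, and the log2 fold change was 0.76 (SE 0.12, adjusted p = 5.1e-05) and 1.10 (SE 0.12, adjusted p = 3.29e-08). The difference between the drugs was 0.34 (adjusted p = 0.098). With INT-787 3 of the 9 uptake genes fell. Scara5, a ferritin receptor, was low throughout and fell from 4.29 ± 3.64 CPM to 0.468 ± 0.344 (log2 -3.23, adjusted p = 2.1e-05). Steap4, a metalloreductase linked to inflammation, fell by 0.63 (adjusted p = 0.00029) and Slc11a2, which codes for the transporter DMT1, by 0.40 (adjusted p = 0.015). With OCA, Scara5 had -1.37 (adjusted p = 0.058), Lrp1 0.47 (adjusted p = 0.12) and Cd163 -1.31 (adjusted p = 0.18). Between the drugs 3 of 9 were called (33.3%, against 5.38% of all tested genes). Steap4 was lower with INT-787 by 0.56 on the log2 scale (adjusted p = 0.006). Cd163, the macrophage receptor for haptoglobin bound to hemoglobin, was at 2.23 ± 2.11 CPM with INT-787 and 0.565 ± 0.412 with OCA (log2 2.00, adjusted p = 0.025), and limma-voom did not call it (adjusted p = 0.30). In the same comparison 1 of 6 Kupffer cell markers was called, Marco, which was higher (log2 2.63, adjusted p = 0.037), and 3 of 6 had an unadjusted p under 0.05. Their part in the Cd163 value was not tested. Scara5 was lower by 1.86 (adjusted p = 0.032) and was not called by limma-voom either (adjusted p = 0.098). Both are low genes and lost the call between the drugs without 1 mouse, Cd163 without OCA replicate 6 or 8 or INT-787 replicate 5 or 8 (1.64 to 1.89) and Scara5 without OCA replicate 2 or 8 or INT-787 replicate 2, 3, 4, 6, 7 or 9 (-1.86 to -1.52). The replicate number as a block and the sample number set as a factor each ended both calls as well.

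Of 7 storage genes 1 was called with INT-787 (14.3%, against 19.6% of all tested genes). It was Aco1, which codes for iron regulatory protein 1 (log2 0.30, adjusted p = 0.013). With OCA or between the drugs 0 were called by edgeR, each with 1 of 7 at an unadjusted p under 0.05. Ftl1, the ferritin light chain, had -0.36 with OCA (adjusted p = 0.16), 0.32 between the drugs (adjusted p = 0.24) and -0.041 with INT-787. Ireb2, which codes for iron regulatory protein 2, had 0.17 with INT-787 (adjusted p = 0.35), Pcbp2 0.11 (adjusted p = 0.31) and Ncoa4, the receptor for ferritin breakdown, 0.13 (adjusted p = 0.37). With OCA, Aco1 had 0.14, Ncoa4 0.13 and Pcbp2 0.078 (adjusted p = 0.42, 0.49 and 0.63). Between the drugs Fbxl5 had 0.14, Aco1 0.16 and Ireb2 0.19 (adjusted p = 0.34, 0.34 and 0.46).

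Slc40a1, Cp and Trf, described above, were not called with INT-787. Of 5 further export and carrier genes tested, 4 fell with INT-787 (80%, against 9.48% of all tested genes that fell). With OCA 0 of 5 were called by edgeR, and 0 had an unadjusted p under 0.05. Lcn2, a siderophore-binding acute phase protein, had 549.7 ± 336, 700.5 ± 251 and 238 ± 54.7 CPM in vehicle, OCA and INT-787 mice (log2 -1.21 against vehicle, adjusted p = 0.00038). All 9 INT-787 mice lay below every OCA mouse (log2 -1.56, adjusted p = 0.00013). Hp (haptoglobin, which binds free hemoglobin) fell by 0.63 (adjusted p = 0.0052) and Hpx (hemopexin, which binds free heme) by 0.35 (adjusted p = 0.014), and against OCA the values were -0.60 (adjusted p = 0.026) and -0.39 (adjusted p = 0.022). Without INT-787 replicate 9 neither of these 2 differences between the drugs was called (-0.58 and -0.34), and without OCA replicate 8 or INT-787 replicate 7 that of Hp was not called (-0.58 and -0.56). Flvcr1, a heme exporter, fell by 0.49 with INT-787 (adjusted p = 0.031) and was not called in 7 of 28 fits, those without vehicle replicate 1, 5, 8 or 9 or INT-787 replicate 1, 6 or 7 (-0.48 to -0.43). With OCA, Lcn2 had 0.35, Flvcr1 -0.19, Hpx 0.042 and Heph 0.069 (adjusted p = 0.46, 0.60, 0.90 and 0.93), and Heph had -0.43 between the drugs (adjusted p = 0.30). Hp, Hpx and Lcn2 are acute phase proteins as well as iron or heme carriers.

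In heme metabolism, 3 of 13 genes (23.1%) were called with each drug, against 19.6% of all tested genes with INT-787 and 6.6% with OCA. Between the drugs 0 were called by edgeR, and 0 had an unadjusted p under 0.05. Hmox1, the inducible heme oxygenase that frees iron from heme, fell from 37.7 ± 5.98 CPM to 28.4 ± 5.81 with OCA (log2 -0.41, adjusted p = 0.035) and 27.9 ± 5.81 with INT-787 (log2 -0.43, adjusted p = 0.0097). Slc48a1, a heme transporter of the lysosome, fell by 0.31 with OCA (adjusted p = 0.028) and 0.41 with INT-787 (adjusted p = 0.0012). Uros, an enzyme of heme synthesis, rose with INT-787 (log2 0.52, adjusted p = 0.0028) and had 0.36 with OCA (adjusted p = 0.083). Blvrb, a biliverdin reductase, fell with OCA by 0.48 (adjusted p = 0.020), a call lost without vehicle replicates 5 and 6 (-0.43, adjusted p = 0.066) and with the sample number set as a factor (-0.40, adjusted p = 0.053). Hmox2, the constitutive heme oxygenase, had 0.19 with INT-787 (adjusted p = 0.12). Between the drugs Fech had 0.11, Blvrb 0.20, Cpox 0.15 and Uros 0.16 (adjusted p = 0.44, 0.45, 0.52 and 0.53). With OCA, Hmox1 was not called without vehicle replicate 1, 5, 9 or 10 or OCA replicate 1, 3, 5, 6, 7 or 9 (-0.41 to -0.36), and Slc48a1 was not called without vehicle replicate 3 or 9 or OCA replicate 3 or 9 (-0.30 to -0.27). Hmox1 was also not called without vehicle replicates 5 and 6 together (-0.40, adjusted p = 0.068) or with the replicate number as a block (-0.36). Slc48a1 was not called with the sample number set as a factor (-0.29, adjusted p = 0.085).

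Of 8 genes of mitochondrial iron and iron-sulfur clusters 2 rose with INT-787 (25%, against 19.6% of all tested genes called, 10.2% higher). They were the mitochondrial iron importer Slc25a37 (log2 0.38, adjusted p = 0.0061) and the iron-sulfur protein Cisd1 (log2 0.37, adjusted p = 0.035). With OCA or between the drugs 0 were called by edgeR, and 1 of 8 each had an unadjusted p under 0.05. Cisd1 was not called in 9 of 28 fits, those without vehicle replicate 1, 3, 6, 7, 8 or 9 or INT-787 replicate 6, 8 or 9 (0.30 to 0.36), nor under upper-quartile normalization (0.31, adjusted p = 0.076) or with only the 2 groups (0.37, adjusted p = 0.060). Slc25a28 had 0.082 with INT-787 (adjusted p = 0.58). With OCA, Slc25a37 had 0.25, Nfs1 -0.13, Iscu -0.18 and Glrx5 -0.15 (adjusted p = 0.14, 0.34, 0.44 and 0.49). Between the drugs Cisd1 had 0.32, Slc25a28 0.18 and Nfs1 0.11 (adjusted p = 0.14, 0.27 and 0.46).

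**Figure D5:**
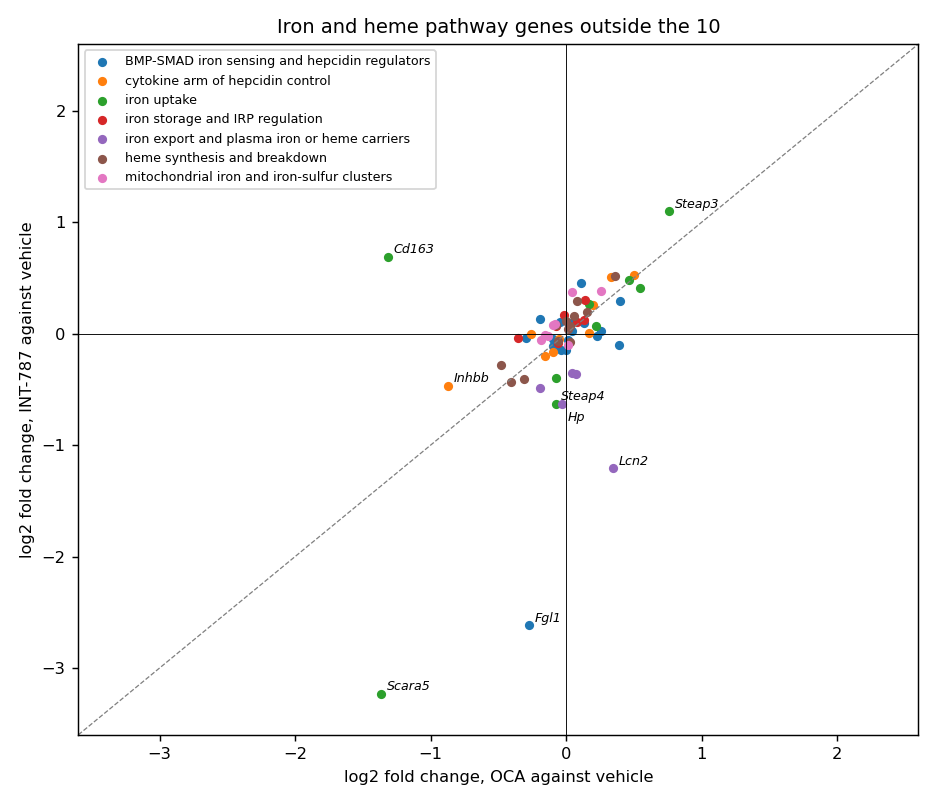
Log2 fold change with INT-787 against vehicle (y axis) by that with OCA against vehicle (x axis) for the 70 further iron and heme genes, coloured by list, with the line of equal change dashed, where the 2 axes share the vehicle mice. Steap3 is high on both axes, Fgl1 and Lcn2 lie far below the line, and Scara5 is low on both axes.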

How the data were processed

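Liver mRNA of 28 mice (vehicle 10, OCA 9, INT-787 9) was sequenced by the authors from libraries made with a stranded kit (vehicle replicate 5 appears not to have kept strand), and reads were aligned with STAR to GRCm38 (mm10) with Ensembl release 89 annotation. The authors deposited raw counts per Ensembl gene, 1 column per mouse, not normalized. The counting program, its strand setting and any filter are not given in the sources used here. The table held 21935 genes, and 0 columns fell outside the series. Symbols, coordinates and exon lengths came from GENCODE M21, matched to 21858 genes. Libraries were numbered within groups and taken as separate mice.

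Genes were filtered with filterByExpr (12580 kept), scaled by TMM and fitted in 1 model of 3 groups with edgeR 4.0.16 (glmQLFit, glmQLFTest, R 4.3.3), with Benjamini-Hochberg adjustment over all 12580 genes. The study's own tool, DESeq2 (here 1.42.0), and limma 3.58.1 (voom) were alternatives. Adjusted p of single genes is from edgeR unless another tool is named. SE is the fold change divided by the root of the F value, and 95% intervals use the same fit. Correlations used log2 CPM (prior count 2) with 100000 permutations within groups, or all orders for 9 mice. Promoters were read from the RefSeq table for GRCm38.p6 and aligned with Biopython 1.88. The tests were tested on simulated data with 200 changed genes.

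All 10 genes are named. By the rule for names, of each pathway list and comparison, up to 4 genes with the smallest adjusted p are named, except where a gene is not reported here. The 5 genes most like Hamp had a mean of at least 5 CPM. The members and lists were chosen with earlier results of these data known. Replicate numbers did not pair the mice by any source used here. Precision follows depth, 1009593 to 22421506 counts per library.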

Additional observations from a re-analysis of the deposited data

Results flagged for a closer look

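Of 30 combinations of gene and group, 3 held a mouse whose gap to its neighbour was large against the range of its group by Dixon's test, where chance gives about 1 in 20. OCA replicate 6 had 616 CPM of Hamp where the next OCA mouse had 380.0, and it also had the most Hamp2 and Id1 of its group. INT-787 replicate 8 had 28.8 CPM of Id1 where the next had 17.3. Vehicle replicate 2 had 51.0 CPM of Tfrc where the next had 26.3, together with the lowest Hamp, Hamp2, Id1 and Trf of the vehicle mice.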

How the results depend on the processing

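Bmp6 with INT-787 kept its call in all 11 other fits in which it was tested and in all 28 fits without 1 mouse. It did not reach the threshold of 1 on the log2 scale, which left Hamp2, and the filter of at least 10 counts in every library removed it from testing. The count of the 10 genes called with INT-787 was 1 in place of 2 under upper-quartile normalization, at least 10 counts in every library, robust estimation, the 0.01 threshold on adjusted p and a required log2 change of 1 or more in size, and 1 to 2 without 1 mouse. With OCA it was 0 with no filter, only the 2 groups, the sample number set as a factor, the 0.01 threshold and the fold threshold, 2 without vehicle replicates 5 and 6 and with the short-gene level as a covariate (chosen after seeing the data), and 0 to 2 without 1 mouse. Trf was the gene gained. Between the drugs it was 0 throughout the fits without 1 mouse. Of the 70 pathway genes, 4 were called with INT-787 at the fold threshold, and 15 to 19 at the usual threshold without 1 mouse. With OCA 2 were called at 0.01, 0 at the fold threshold and 3 to 7 without 1 mouse. Between the drugs it was 3 at 0.01, 4 at the fold threshold and 4 to 8 without 1 mouse. The correlation of Id1 with Hamp was 0.39 without vehicle replicate 2 and 0.28 with the short-gene level taken out, both chosen after seeing the data and past the threshold in neither. Values near 0 changed sign. Without 1 mouse, Hamp with OCA ran from -0.14 to 0.30, Id1 with OCA from -0.18 to 0.076, Fth1 with OCA from -0.044 to 0.061, Tfrc with INT-787 from -0.21 to 0.11, and between the drugs Hamp2 from -0.12 to 0.46, Tfr2 from -0.029 to 0.061 and Slc40a1 from -0.092 to 0.024. Id1 with OCA was 0.043 without vehicle replicates 5 and 6. Tfr2 between the drugs was -0.019 under upper-quartile normalization, -0.015 with the number set and -0.013 with at least 10 counts. Fth1 with OCA was -0.016 with DESeq2 size factors and with DESeq2, -0.031 under upper-quartile normalization, -0.0027 with no filter, -0.0031 with at least 10 counts, -0.015 with only the 2 groups and -0.038 with the number set. Over all genes, upper-quartile normalization moved the share of calls that were higher from 51.7% to 37.5% for INT-787, from 62.9% to 52.3% for OCA and from 40.8% to 32.2% between the drugs. The cause of these changes was not tested. Same-numbered mice correlated by -0.24 to 0.43 (27 pairs, 11 over 0.1), and 5 libraries correlated best with their own number. Sets built from the sample numbers in the labels (each vehicle number with those that follow it up to the next vehicle, and the last number alone) gave -0.20 to 0.43 (25 pairs, 13 over 0.1), with 7 libraries best with their own set. No source used here says that either number marks a shared litter, batch or day, so neither was used as pairing in the main fit. These correlations cannot show whether the mice were paired, since no chance level was computed for them. The sets as a factor ended the calls of Cp, Slc48a1 and Blvrb with OCA (0.35, -0.29 and -0.40) and of Cd163 and Scara5 between the drugs (1.79 and -1.94). A replicate block gave 3 of the 10 genes with INT-787 (Tfr2 added, log2 0.25, adjusted p = 0.025), 1 with OCA and 0 between the drugs, and 21, 7 and 6 pathway genes. Among the named calls it ended those of Cd163 and Scara5 between the drugs (1.79 and -1.71) and of Hmox1 with OCA (-0.36), and it changed no other. Hamp had 0.90 with INT-787 (adjusted p = 0.051) and 0.45 with OCA under it. Depth limits low genes most in vehicle replicate 6, which had 6 counts of Bmp6 and 10 of Tfrc.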

Other observations

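Vehicle replicate 2 stood at the low end of the vehicle group in Hamp (13.6 CPM), Hamp2 (7.04 CPM), Id1 (6.96 CPM) and Trf (1102 CPM) and at the high end in Tfrc (51.0 CPM), while its Bmp6 (4.67 CPM), Tfr2 (367 CPM) and Cp (3606 CPM) were within the range of the others. The lowest short-gene level of each group was in its replicate 1, at -0.60 in vehicle, -0.34 in OCA and -0.27 in INT-787. Replicates 2 and 3 were also below 0 in every group. Late sample numbers were above 0, in vehicle replicates 9 and 10 (0.022 and 0.84), OCA 7 and 8 (0.34 and 0.21) and INT-787 8 and 9 (0.35 and 0.072). Between these the sign was mixed, and the reason for the order was not tested.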
